A study of Mus musculus with 4 samples.

Results

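The imprinted genes of the embryonic mouse ventricle were followed across hearts with and without the Hif1a gene in cardiac cells. The set comprises 33 listed genes known to be imprinted in the mouse, matched by symbol with no threshold on a measured value, with the heart-imprinted gene Ddc among them. The list was drawn up with earlier results of these data known. Of these, 32 had a row among the 38293 rows of the deposited table; Kcnq1ot1, the paternally expressed antisense RNA of the Kcnq1 domain, was not analysed here. A filter on low counts kept 30 of the 32 among 13711 genes tested, and left out Magel2 and Phlda2.

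RNA was taken from the ventricles of individual embryos at E12.5, all on a C57BL/6 background and all from litter 6, after the atria and the valve region had been removed. The cKO group had the genotype Hif1alphaflox/flox/Nkx2.5Cre/+, in which Cre recombinase made from the Nkx2-5 locus, active in heart muscle precursors, removes the floxed part of Hif1a. The control group had the genotype Hif1alphaflox/flox/Nkx2.5+/+, which shares the floxed alleles but lacks Cre. Each group held 2 libraries, with the replicate numbers 2 and 3, matched by somite count. Embryos with Cre but no floxed allele were not analysed here, so Hif1a loss cannot be told apart from Cre itself or from the altered Nkx2-5 allele. Cells outside the Nkx2-5 lineage keep Hif1a in this model, and which cells of the ventricle these are was not measured. The comparison asks which transcripts differ between ventricles with and without the Cre that removes Hif1a in the Nkx2-5 lineage. The Hif1a protein is the subunit of HIF-1 that oxygen destabilises.

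An imprinted gene is transcribed mainly from the copy inherited from the mother or from the father, because a methylation mark laid down in the egg or sperm is kept at a control region through development. Many imprinted genes lie in clusters in which neighbouring genes are read from opposite parental copies, and many act on fetal growth: Igf2 promotes it, while Igf2r, Grb10 and Cdkn1c restrain it. The counts used here add both parental copies together, so they give the level of each gene and say nothing about which copy was read. In a bulk sample, fewer cells of a type and less RNA per cell cannot be told apart.

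Total expected counts lay between 8561687 and 19801300 per library, the largest in cKO replicate 3. That library was also the only male of the 4, with Ddx3y at 101 CPM (counts relative to library size, scaled by the trimmed mean of M values, TMM) and Xist at 2.11 CPM, against 1754 to 2097 CPM of Xist in the other libraries. Hif1a itself, counted over the whole gene, stood at 716 and 663 CPM in cKO, against 530 and 552 CPM in control (adjusted p = 0.317), which does not check the deletion. Nkx2-5, the gene that carries the Cre, had 44.3 and 42.1 CPM in cKO, against 55.9 and 64.9 CPM in control (log2 fold change -0.49, adjusted p = 0.153). All 13 ventricular muscle markers were measured, with summed levels of 35387 to 39369 CPM in cKO and 37074 to 39062 CPM in control.

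Promoters and microRNAs are shown first, since the values below turn on the genes that hold them. The promoters are those of Ddc, the member whose level differed, and of its neighbour Grb10, whose level did not pass the test. Each is given from 250 bases before to 50 bases after a RefSeq transcript start on GRCm38.p6, 5′ to 3′ on the minus strand of chromosome 11. Capitals mark the core of the HIF binding element, ACGTG or GCGTG, read on either strand.
Ddc, upstream start, chr11:11898095-11898394: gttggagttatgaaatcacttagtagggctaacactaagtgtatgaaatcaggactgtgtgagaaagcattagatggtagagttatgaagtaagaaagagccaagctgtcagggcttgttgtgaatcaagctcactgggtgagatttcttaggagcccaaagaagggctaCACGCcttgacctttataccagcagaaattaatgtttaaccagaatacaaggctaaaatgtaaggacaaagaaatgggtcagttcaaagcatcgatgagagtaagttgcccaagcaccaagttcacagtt
Ddc, downstream start, chr11:11890359-11890658: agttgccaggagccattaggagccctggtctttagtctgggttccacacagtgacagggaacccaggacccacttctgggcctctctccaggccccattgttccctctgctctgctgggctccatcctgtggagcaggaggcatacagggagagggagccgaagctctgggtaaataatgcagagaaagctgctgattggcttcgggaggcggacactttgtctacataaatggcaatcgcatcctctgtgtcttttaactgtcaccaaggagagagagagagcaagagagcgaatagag
Grb10, upstream start, chr11:12037371-12037670: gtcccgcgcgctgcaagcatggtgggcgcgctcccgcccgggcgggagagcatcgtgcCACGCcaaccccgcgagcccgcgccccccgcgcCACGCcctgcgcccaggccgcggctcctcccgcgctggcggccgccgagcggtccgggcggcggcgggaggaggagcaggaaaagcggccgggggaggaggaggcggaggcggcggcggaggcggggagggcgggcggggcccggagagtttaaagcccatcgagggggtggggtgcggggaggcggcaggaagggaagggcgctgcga
Grb10, downstream start, chr11:12027922-12028221: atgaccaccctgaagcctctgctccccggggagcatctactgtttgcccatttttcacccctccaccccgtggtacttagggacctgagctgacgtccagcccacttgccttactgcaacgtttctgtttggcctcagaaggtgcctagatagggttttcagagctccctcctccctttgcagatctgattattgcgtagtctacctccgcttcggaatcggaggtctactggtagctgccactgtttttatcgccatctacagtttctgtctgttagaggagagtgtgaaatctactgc

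The upstream Grb10 promoter held 45 CpG dinucleotides and the downstream one 9, whereas the Ddc promoters held 2 upstream and 5 downstream. The median over 32851 mouse promoters of 300 bases was 7. The upstream Ddc promoter had 1 match to GCGTG, on the strand opposite to transcription, and the downstream one had none. The core in either form was found in 22 of the 45 promoters of the 27 listed genes that the RefSeq table covers (48.9%) and in 43.8% of all promoters. TGCCGC, the sequence recognised by ZFP57, a protein that protects imprints, stood in 10 of the 45 (22.2%) and in 11.6% of all promoters. Some member promoters overlap each other, CACGTG counts as ACGTG on both strands, and a match describes these letters only.

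The microRNAs are those carried by 3 of the most abundant members. H19 is processed into miR-675, miR-483 lies in an intron of Igf2, and miR-335 in an intron of Mest. Mature sequences are from RefSeq on GRCm38.p6, with the seed, bases 2 to 8, in capitals.
miR-675-5p, chr7:142577112-142577133, minus strand: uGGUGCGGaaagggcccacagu
miR-675-3p, chr7:142577078-142577099, minus strand: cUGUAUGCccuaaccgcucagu
miR-483-5p, chr7:142654968-142654989, minus strand: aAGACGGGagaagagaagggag
miR-483-3p, chr7:142654932-142654952, minus strand: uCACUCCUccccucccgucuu
miR-335-5p, chr6:30741314-30741336, plus strand: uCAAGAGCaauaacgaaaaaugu
miR-335-3p, chr6:30741354-30741375, plus strand: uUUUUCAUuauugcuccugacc
No seed was shared among these 6. Polyadenylated RNA was sequenced, so the host genes were measured and the mature microRNAs were not.

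The imprinted genes ran from rank 11 (H19) to rank 17071 (Usp29) among the 21391 rows with a level above 0. To compare genes with each other, expected counts were divided by exon length and scaled to the same sum in each library, a level called TPM-like below. Of the 32 members, 10 had a mean of at least 100 TPM-like units over the 4 libraries, 22 had at least 10, and 4 had under 1. By this level H19 ranked 11 among all rows of the table, Mest 25, Igf2 31, Igf2r 71 and Cdkn1c 98. The 32 genes together took 3.0% and 2.91% of all counts in cKO, against 2.87% and 3.12% in control.

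**Figure D1:**
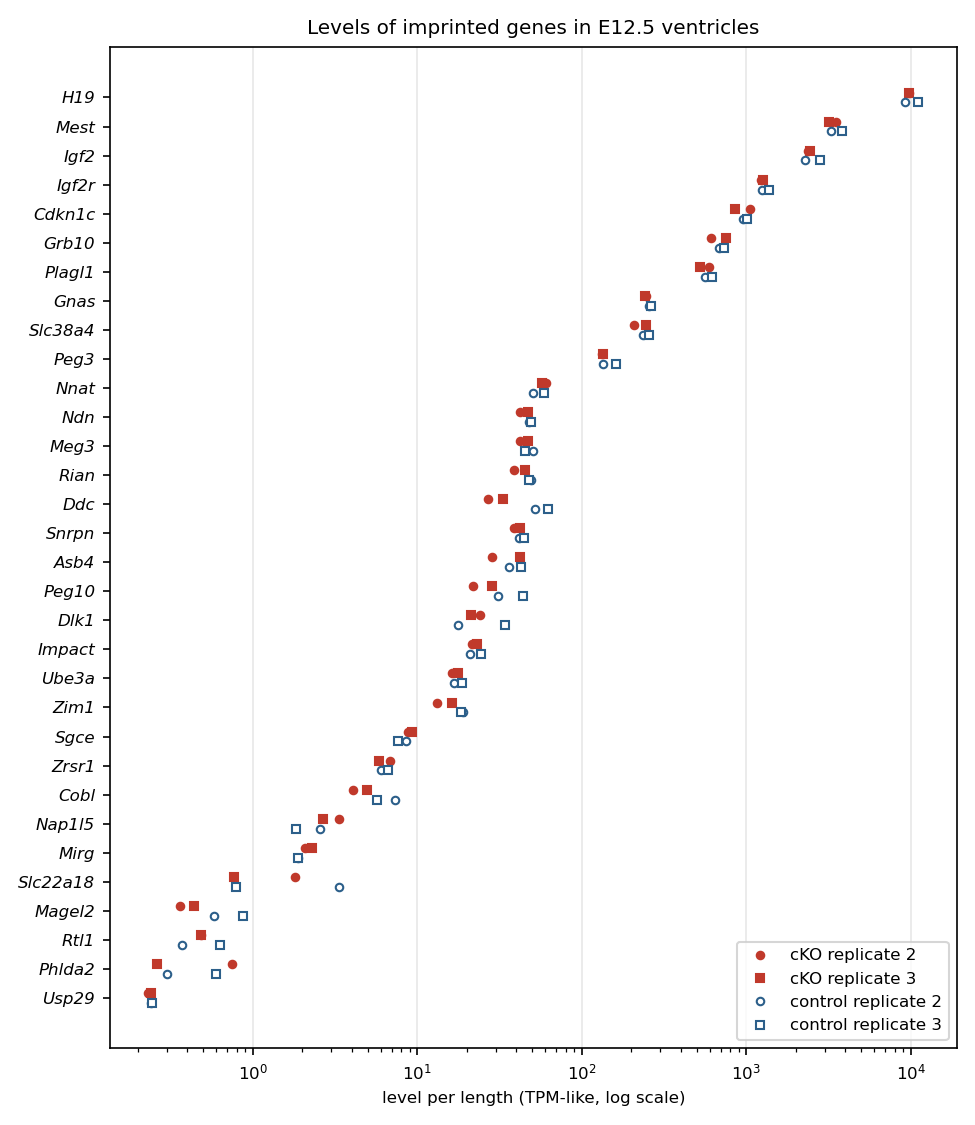
Level per length of each imprinted gene (TPM-like, log scale) in each of the 4 libraries, genes ordered by their mean; filled red symbols are cKO, open blue symbols control, circles replicate 2 and squares replicate 3. Levels run from H19 at 9264 to 11114 down to Usp29 at 0.232 to 0.242. The cKO and control points of Ddc stand apart, as do those of several other members, Gnas, Peg10 and Sgce among them. By CPM the groups did not overlap for 38.2% of all genes tested.

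The highest level was that of H19, a maternally expressed noncoding RNA, at 9784 and 9725 TPM-like units in cKO, against 9264 and 11114 in control. Mest, a paternally expressed gene for a hydrolase-like protein of mesoderm, followed at 3492 and 3190 in cKO, against 3288 and 3808 in control. The growth factor gene Igf2 had 2381 and 2446 in cKO, against 2280 and 2797 in control. For each of these 3 genes the control libraries enclosed the cKO libraries or overlapped them. Igf2r, Cdkn1c, Grb10 and Plagl1 came next, with means over the 4 libraries of 1275, 966, 695 and 573. Each neighbouring pair from H19 down to Grb10 had ranges over the 4 libraries that stood apart, whereas Grb10 and Plagl1 overlapped, as did Gnas (252) and Slc38a4 (236).

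A middle group lay between 17 and 57 TPM-like units and included Dlk1, Meg3 and Rian of chromosome 12 and Ndn, Snrpn and Ube3a of chromosome 7. From Ndn (46.4) down through Meg3, Rian, Ddc, Snrpn, Asb4, Peg10 and Dlk1 to Impact (22.5), each neighbour in the order overlapped the next across libraries. The lowest members were Magel2, Rtl1, Phlda2 and Usp29. Usp29, the ubiquitin protease gene that shares its start region with Peg3, had 15 and 30 counts in cKO, against 13 and 13 in control. Phlda2, a brake on placental growth, had 3 and 2 counts in cKO, against 1 and 2 in control, and Magel2 had 6 and 14 counts in cKO, against 8 and 12 in control. Of adjacent pairs in the whole order, 14 were apart and 17 overlapped. The order depends on the length used: with the longest transcript in place of the joined exons, Ddc moved from 43.7 to 78.0 and from rank 15 to 12 among members, and Gnas from 252 to 577 at an unchanged rank of 8. Grb10 (1009) then ranked 5 and Cdkn1c (838) ranked 6, the reverse of their order by joined exons.

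Of the 30 tested members 1 fell in cKO, 0 rose and 29 were not called at an adjusted p of 0.05 by edgeR's quasi-likelihood fit. The gene that fell was Ddc. Over all 13711 genes 70 were called (0.511%), 50 of them lower in cKO (0.365%) and 20 higher (0.146%). The members' median log2 fold change was -0.020, with a positive sign in 8 and a negative sign in 22. Over all genes tested the median was -0.00031, with 6838 positive and 6873 negative. The CPM values of cKO and control did not overlap for 9 of 30 members (5 lower, 4 higher; 30%), against 38.2% of all genes tested. An unadjusted p under 0.05 was reached by 4 members (Ddc, Peg10, Cobl and Zim1; 13.3%), against 6.97% of all genes. DESeq2 called Ddc alone among the members, where it called 0.7% of all genes (0.474% lower in cKO, 0.226% higher), and gave an unadjusted p under 0.05 to 2 members, Ddc and Peg10, and to 3.71% of all genes. With limma-voom Ddc was again the 1 member called, where 73 of all 13711 genes were called.

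**Figure D2:**
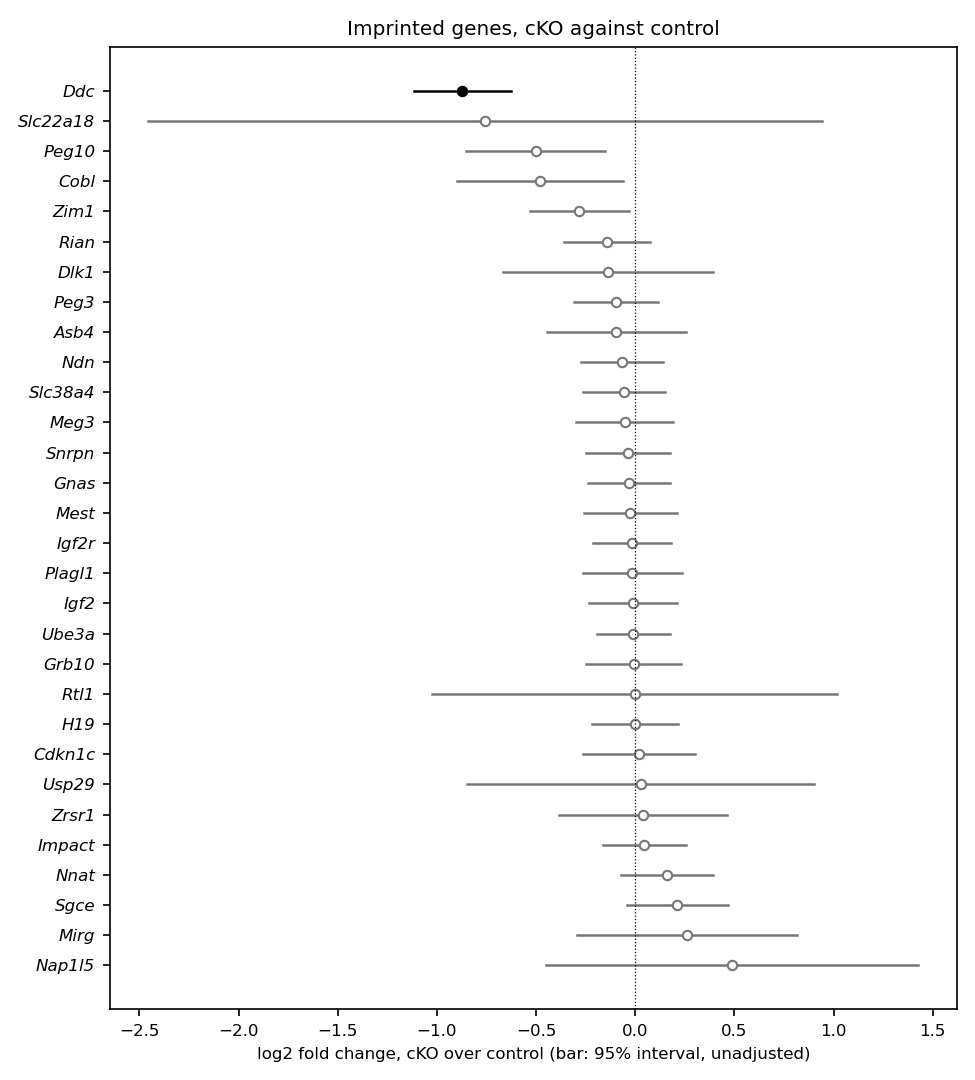
Log2 fold change of cKO over control for the 30 tested imprinted genes, ordered from lowest to highest, with 95% intervals from the quasi-likelihood fit that are not adjusted for the number of genes; the filled black point passed the test. Ddc stands at -0.87 with an interval from -1.12 to -0.63, and most other genes lie close to 0.

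Ddc (ENSMUSG00000020182, GRCm38 chromosome 11, 11814101 to 11898144, minus strand) encodes aromatic L-amino acid decarboxylase, which makes dopamine and serotonin from their precursors. In the mouse heart a transcript from an alternative first exon is read from the paternal copy, while neighbouring Grb10 is read from the maternal copy in most tissues. Ddc had 431 and 1010 expected counts in cKO, against 695 and 827 in control, from libraries of unequal depth. Scaled for depth these were 43.6 and 50.7 CPM in cKO, against 82.2 and 91.2 CPM in control. Both cKO libraries were below both controls. Mean levels were 47.2 ± 5.05 CPM across cKO libraries and 86.7 ± 6.39 CPM across controls (SD, n = 2 for either), and the level in cKO was 0.547 of that in control (log2 fold change -0.87 ± 0.11 SE, adjusted p = 0.0126). The call was lost without control replicate 3 (log2 fold change -0.79, adjusted p = 0.0824), and it held without cKO replicate 3, the male library (-0.99, adjusted p = 0.0147).

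No neighbour of Ddc passed the test. Within 1 Mb on either side the table held 23 rows, of which 5 were tested and Ddc alone was called. Fignl1, an ATPase gene of DNA repair that lies 5.14 kb away, had 89.8 and 96.7 CPM in cKO, against 95.7 and 97.5 CPM in control (log2 fold change -0.049, 95% interval -0.24 to 0.14). Grb10, an adaptor that restrains insulin and IGF signalling and lies 32.4 kb away, had 1998 and 2357 CPM in cKO, against 2198 and 2182 CPM in control. Grb10 had a log2 fold change of -0.0082 ± 0.10, with an interval from -0.25 to 0.23 that does not reach the value of Ddc. The cKO libraries lay on either side of the controls for Grb10.

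Cobl, which encodes an actin nucleator and lies 338 kb away, is imprinted in extraembryonic tissue of the mouse. It had 11.9 and 13.8 CPM in cKO, against 21.04 and 15.2 CPM in control. These did not overlap, as for 38.2% of all genes tested. The difference of -0.48 ± 0.18 on the log2 scale was not called (adjusted p = 0.649). Ikzf1, a gene of blood cell development, had 17 and 47 counts in cKO, against 12 and 19 in control (log2 fold change 0.24 ± 0.39).

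**Figure D3:**
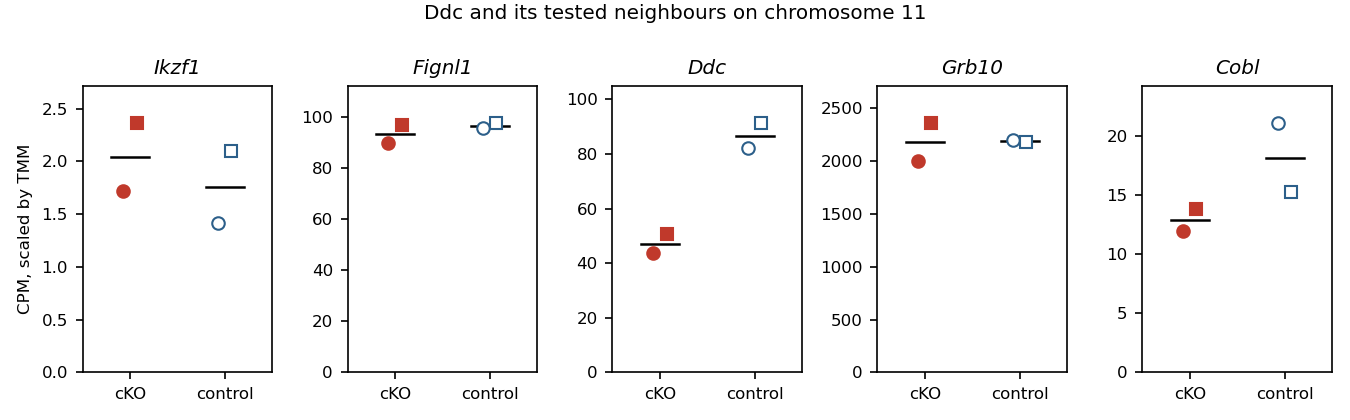
CPM scaled by TMM for Ddc and its 4 tested neighbours on chromosome 11; each point is a library (circle replicate 2, square replicate 3), the bar is the mean of the group, cKO is red and filled and control blue and open, and each axis starts at 0. Ddc is at 43.6 and 50.7 in cKO and at 82.2 and 91.2 in control, while the groups of Grb10 overlap.

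A ratio of neighbouring genes within a library needs no scaling between libraries. For every 100 counts of Grb10 there were 2.18 and 2.15 counts of Ddc in cKO, against 3.74 and 4.18 in control. The cKO values lay close together and below both controls. For every 100 counts of Fignl1 there were 48.5 and 52.5 of Ddc in cKO, against 85.8 and 93.6 in control. With 2 libraries against 2 the smallest two-sided exact permutation p is 0.333, so the ratios are given without a test.

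Other genes of amine handling, a list chosen after the values of Ddc had been seen, showed no call. Of 14 genes 7 were tested, and edgeR, DESeq2 and limma-voom each called 0, with a median log2 fold change of 0.0056. By edgeR 1 of the 7 had an unadjusted p under 0.05 (14.3%), against 6.97% of all genes tested. This was Qdpr, which regenerates the cofactor of the amino acid hydroxylases. Qdpr had 43.5 and 43.2 CPM in cKO, against 38.7 and 33.2 CPM in control (0.27 ± 0.10, adjusted p = 0.648). Th, which makes the substrate of Ddc in catecholamine cells, had 0 and 1 counts in cKO, against 0 and 1 in control, and Tph1 and Tph2, which do so for serotonin, were listed at 0 in all 4 libraries. Slc18a2, the vesicle carrier of amines, had 18.0 and 17.5 CPM in cKO, against 18.6 and 16.8 CPM in control. Maoa, which breaks amines down, had 26.5 and 28.2 CPM in cKO, against 25.3 and 19.2 CPM in control (log2 fold change 0.30 ± 0.14, adjusted p = 0.708).

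The growth genes of the H19 and Igf2 domain on chromosome 7 were close to equal between groups. H19 (142575529 to 142578143, minus strand) had 8711 and 8243 CPM in cKO, against 8036 and 8941 CPM in control (log2 fold change -0.0019 ± 0.095, adjusted p = 0.998). Igf2 had 4932 and 4824 CPM in cKO, against 4600 and 5235 CPM in control (-0.012 ± 0.097, adjusted p = 0.988). The cKO values of both genes lay between those of the controls, and control replicate 3 was the highest library for both. The 95% intervals ran from -0.22 to 0.22 for H19 and from -0.23 to 0.21 for Igf2. There were 56.6 and 58.5 counts of Igf2 for every 100 of H19 in cKO, against 57.2 and 58.6 in control. The direction of both genes turned positive under upper-quartile scaling.

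The receptors and brakes of growth were not called either. Igf2r, the scavenger receptor that removes IGF2, had 4129 and 4037 CPM in cKO, against 4076 and 4179 CPM in control (95% interval -0.21 to 0.18). Airn, the antisense RNA that silences the paternal Igf2r copy, had 83.9 and 82.1 CPM in cKO, against 97.6 and 77.8 CPM in control. Cdkn1c, the cyclin-dependent kinase inhibitor p57, had 775 and 600 CPM in cKO, against 687 and 671 CPM in control (log2 fold change 0.018 ± 0.12, adjusted p = 0.984). Its cKO libraries differed 1.29-fold and lay on either side of the controls, so the sign depended on which was used: 0.19 without cKO replicate 3 and -0.18 without cKO replicate 2. Slc22a18, a transporter gene beside Cdkn1c, had 11 and 9 counts in cKO, against 17 and 4 in control, and its 95% interval ran from -2.46 to 0.94.

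In the Dlk1 domain on chromosome 12 the controls of Dlk1 and Meg3 enclosed both cKO libraries. Dlk1, a membrane protein of the Notch ligand type that is read from the paternal copy, had 49.1 and 41.3 CPM in cKO, against 35.1 and 63.4 CPM in control. The 2 controls differed 1.81-fold (log2 fold change -0.14 ± 0.23, adjusted p = 0.928), and the log2 fold change was 0.36 without control replicate 3. The maternally expressed noncoding RNA Meg3 had 276 and 293 CPM in cKO, against 324 and 267 CPM in control (-0.053 ± 0.11, adjusted p = 0.943). Rian, which holds small nucleolar RNAs, had 255 and 285 CPM in cKO, against 314 and 283 CPM in control (-0.15 ± 0.09, adjusted p = 0.788).

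Dlk1 and Meg3 went opposite ways between the controls: control replicate 3 was higher for Dlk1 and lower for Meg3. There were 17.8 and 14.1 counts of Dlk1 for every 100 of Meg3 in cKO, against 10.8 and 23.8 in control. Mirg, a microRNA host at the end of the domain, had 54 and 114 counts in cKO, against 41 and 41 in control. Its log2 fold change was 0.26 ± 0.24 (adjusted p = 0.872). Between the start of Meg3 and the end of Mirg the RefSeq table lists 54 microRNA hairpins on the plus strand. Rtl1, a retrotransposon-derived gene, had 11 and 21 counts in cKO, against 7 and 12 in control, and its 95% interval ran from -1.03 to 1.02.

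In the Peg10 domain on chromosome 6, Peg10 and Sgce stood on opposite sides of 0. Peg10, a retrotransposon-derived gene needed for the placenta, had 52.5 and 65.5 CPM in cKO, against 72.2 and 95.7 CPM in control. Peg10 was not called (log2 fold change -0.50 ± 0.15, adjusted p = 0.504), and leaving out a control gave -0.28 (replicate 3) or -0.69 (replicate 2). Sgce, which encodes epsilon-sarcoglycan and starts next to Peg10, had 33.7 and 34.1 CPM in cKO, against 32.0 and 26.6 CPM in control (0.21 ± 0.11, adjusted p = 0.749). Neither gene's groups overlapped, which held for 38.2% of all genes tested. There were 156 and 192 counts of Peg10 for every 100 of Sgce in cKO, against 225 and 360 in control. Asb4, a maternally expressed gene for an ankyrin repeat protein, had 40.6 and 56.9 CPM in cKO, against 50 and 55.1 CPM in control.

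**Figure D4:**
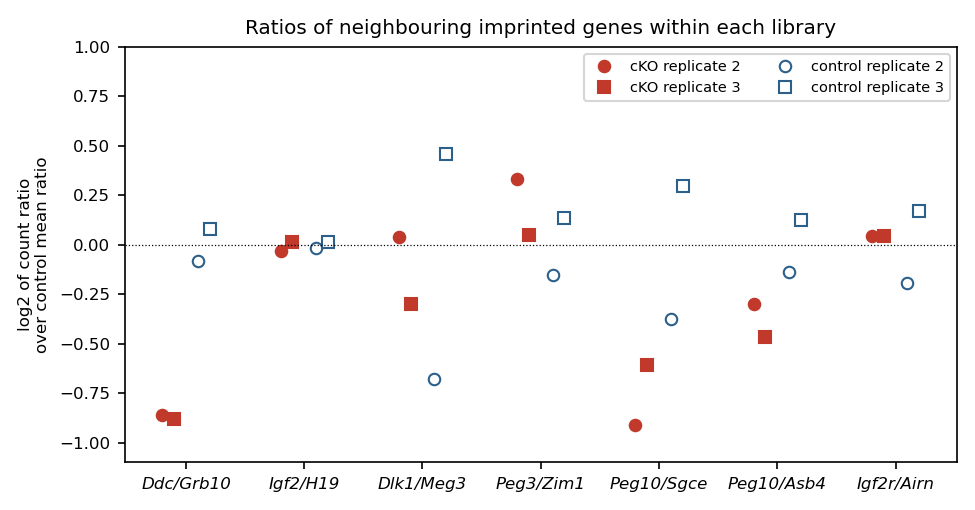
Ratios of the counts of neighbouring imprinted genes (for Igf2r, its antisense RNA Airn) in each library, as the log2 of the ratio over the mean ratio of the controls; filled red symbols are cKO, open blue symbols control, circles replicate 2 and squares replicate 3. Both cKO points of Ddc over Grb10 lie below the controls and close together. Those of Peg10 over Sgce and of Peg10 over Asb4 also lie below the controls. The controls of Dlk1 over Meg3 are the widest apart.

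Members of the Peg3 domain on chromosome 7 are a zinc finger gene, Peg3, its oppositely transcribed partner Usp29, and the maternally expressed Zim1. Peg3 had 637 and 614 CPM in cKO, against 633 and 705 CPM in control (log2 fold change -0.098 ± 0.091, adjusted p = 0.873). Zim1 had 38.6 and 45.3 CPM in cKO, against 53.7 and 49.0 CPM in control. The groups did not overlap, as for 38.2% of all genes tested. Zim1 was not called (-0.28 ± 0.11, adjusted p = 0.655).

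Of the Snrpn domain 3 genes were tested. Snrpn, which encodes a spliceosome protein, had 30.2 and 31.1 CPM in cKO, against 31.6 and 31.5 CPM in control. The ubiquitin ligase gene Ube3a, imprinted in neurons, had 121 and 125 CPM in cKO, against 122 and 126 CPM in control, and Ndn, a MAGE family gene, had 56.0 and 59.6 CPM in cKO, against 62.3 and 59.1 CPM in control. The log2 fold changes of the 3 genes lay between -0.067 and -0.010, and none passed.

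Of the imprinted genes outside the domains above, Mest had 4986 and 4337 CPM in cKO, against 4573 and 4912 CPM in control. Plagl1, a zinc finger transcription factor, had 1686 and 1402 CPM in cKO, against 1543 and 1578 CPM in control. In both genes cKO replicate 2 was the highest library and cKO replicate 3 the lowest. Gnas, which encodes the stimulatory G protein alpha subunit, had 999 and 929 CPM in cKO, against 1015 and 958 CPM in control. The amino acid carrier Slc38a4 had 319 and 363 CPM in cKO, against 355 and 355 CPM in control. Impact, whose product restrains the amino acid sensor GCN2, had 40.0 and 41.0 CPM in cKO, against 37.8 and 40.7 CPM in control.

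None of the remaining genes was called. Nnat, a proteolipid gene, had 40.3 and 36.1 CPM in cKO, against 32.7 and 35.3 CPM in control (log2 fold change 0.16 ± 0.10, adjusted p = 0.788). Nap1l5 had 22 and 34 counts in cKO, against 14 and 10 in control (0.49 ± 0.41, adjusted p = 0.849). Zrsr1, a splicing factor gene inside Commd1, had 11.03 and 9.09 CPM in cKO, against 9.57 and 9.81 CPM in control. For 21 of the 30 tested members the 95% interval lay within 1.5-fold of equality in either direction.

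Differences of the tested members were set beside those of all genes above the same minimum level, without matching levels above it. Among members with a mean of at least 30 CPM, 16 of 23 had an absolute log2 fold change under 0.1 (69.6%). Of all 6448 genes at or above 30 CPM 60.0% did, and of all genes tested, with no such minimum, 45.9%. The 90th percentile at or above 30 CPM was 0.27 for the members and 0.23 for all genes. By parental copy, the median was -0.015 for the 17 members assigned to the paternal copy, with 6 positive. It was -0.034 for the 13 assigned to the maternal copy, with 2 positive. Many of these signs rest on values near 0. Under upper-quartile scaling H19, Igf2r, Grb10 and Ube3a of the maternal copy and Igf2, Rtl1 and Plagl1 of the paternal copy turned positive. The assignment follows textbook knowledge of the mouse in any tissue and was not checked for the heart. It includes genes such as Ube3a and Cobl, whose imprinting is described elsewhere than the heart.

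A wider list of 52 other genes reported as imprinted in mouse tissues held 48 with a row and 38 tested. Of these 0 rose and 0 fell by edgeR, and DESeq2 and limma-voom called 0. By edgeR 3 had an unadjusted p under 0.05 (7.89%), against 6.97% of all genes tested. The median log2 fold change was -0.095, with 25 negative and 13 positive. The smallest p was that of Qpct, which encodes glutaminyl cyclase, at 24.7 and 19.9 CPM in cKO, against 34.0 and 31.9 CPM in control (-0.58 ± 0.13, adjusted p = 0.177). Of 31 genes that set or keep imprints, such as DNA methyltransferases, TRIM28 and CTCF, 29 were tested. EdgeR, DESeq2 and limma-voom each called 0, with a median of -0.037 and, by edgeR, 1 unadjusted p under 0.05 (3.45%). This was Uhrf1, which guides maintenance methylation, at 112 and 127 CPM in cKO, against 145 and 155 CPM in control (-0.32 ± 0.09).

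Markers of other cells were measured beside these values, and their part in the level of Ddc was not tested. All 12 endothelial and endocardial markers had negative log2 fold changes (median -0.22). Of these, 6 had an unadjusted p under 0.05 by edgeR (50%, against 6.97% of all genes tested), Flt1 the smallest (-0.29 ± 0.09). EdgeR, DESeq2 and limma-voom called 0 of the 12, with summed levels of 1593 and 1443 CPM in cKO, against 1702 and 1779 CPM in control. Smooth muscle and pericyte markers summed to 831 and 959 CPM in cKO, against 1264 and 1272 CPM in control. Of 6 tested, edgeR called 0 (3 with an unadjusted p under 0.05), DESeq2 2 and limma-voom 1, and Acta2 had the smallest p (-0.63 ± 0.11). Over all 13711 genes tested, edgeR called 0.511%, DESeq2 0.7% and limma-voom 73 genes. Of 12 epicardial markers 1 fell, the keratin gene Krt19, at 25.4 and 17.9 CPM in cKO, against 41.4 and 45.4 CPM in control (-1.03 ± 0.16, adjusted p = 0.0347 by edgeR). The epicardial call was lost with no filter, with a mean of at least 5 CPM, and on leaving out either control or cKO replicate 3. Of the 12, 11 had negative log2 fold changes (median -0.27) and 5 had an unadjusted p under 0.05. The list summed to 459 and 356 CPM in cKO, against 445 and 504 CPM in control.

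Cushion mesenchyme and fibroblast markers split the replicates, with 1039 and 1386 CPM in cKO, against 1064 and 1539 CPM in control. Col2a1 had the smallest p among them, at 5.46 and 36.1 CPM in cKO, against 78.8 and 64.9 CPM in control. Neural crest and neural markers summed to 15.8 and 20.3 CPM in cKO, against 18.2 and 14.4 CPM in control. Of their 7 genes Foxd3 was listed at 0, and Stmn2 had the smallest p (1.02 ± 0.50).

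Erythroid markers summed to 2844 and 6881 CPM in cKO, against 5374 and 6243 CPM in control, with 0 of 12 past the test (Slc4a1 at -0.66 ± 0.33). The median log2 fold change of the erythroid markers was -0.28. It was -1.11 without cKO replicate 3 and 0.24 without cKO replicate 2. Immune markers summed to 37.7 and 42.0 CPM in cKO, against 30.5 and 78.3 CPM in control (Mrc1 at -0.75 ± 0.37). Atrial markers summed to 11.9 and 15.5 CPM in cKO, against 15.7 and 15.3 CPM in control (Kcna5 at -1.05 ± 0.36). Liver markers summed to 3.24 and 2.46 CPM in cKO, against 1.42 and 0.882 CPM in control (Apoa2 at 1.89 ± 0.66), and skeletal muscle markers to 0.405 and 0.301 CPM in cKO, against 0.591 and 0.331 CPM in control. The liver gene Serpina1a and the skeletal muscle genes Myf5 and Pax3 were listed at 0. No skeletal muscle marker passed the filter, so none was tested. EdgeR, DESeq2 and limma-voom called 0 of the 12 erythroid, 7 immune, 3 atrial, 1 liver, 11 cushion and 3 neural markers tested and 0 of the 13 ventricular markers, among which Actn2 had the smallest p (-0.20 ± 0.09). Unadjusted p values under 0.05 by edgeR were reached by 1 atrial, 1 liver and 2 cushion markers, and by 0 of the erythroid, immune, neural and ventricular ones. Over all genes tested the share was 6.97%.

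Reads that fit overlapping genes limit some values. The library kit does not record strand, so reads from exon bases that genes share on opposite strands cannot be told apart. Such bases are shared by Mest and Copg2 (912), Meg3 and Gm26906 (1228), and Zrsr1 and Commd1 (412). Gnas shares them with Nespas (988) and Gm20721 (1469), and Igf2 with Igf2os (98). The Snrpn row was identified by its transcript names, since its gene identifier carries another symbol in GENCODE. No member had a near-identical copy with a row of its own. Ddc shared no exon bases with another gene.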

How the data were processed

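Polyadenylated RNA from 4 individual E12.5 ventricles was sequenced as single reads of 75 bases from 500 ng of total RNA, per the labels' protocols. The deposited values are RSEM-type expected counts for each gene and library, which need not be whole, in a single table. CASAVA 1.8.2, cutadapt 1.3, RSEM 1.2.3 and GRCm38 are named in the submitters' processing notes; the annotation version is not given in these sources. Symbols, positions and exon lengths came from GENCODE release 21 for mouse (36320 rows by gene identifier, 279 by transcript names, 1694 with none).

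Expected counts were rounded, filtered by group with edgeR 4.0.16 (minimum count 10, minimum total 15), scaled by TMM and compared by glmQLFit and glmQLFTest in R 4.3.3 over all genes, with Benjamini-Hochberg adjustment, a threshold of 0.05 and 2 residual degrees of freedom. SE is the log2 fold change over the square root of F, and intervals use the fit's degrees of freedom. TPM-like levels used unrounded counts and the joined exons of each gene. Simulated counts with known changes were used to test the fit. Copies were sought with BLAST 2.17.0 (95% identity over 300 bases). Alternatives were DESeq2 1.42.0, limma-voom (limma 3.58.1), other scalings and filters, the replicate block, overlapping genes summed and each library left out.

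The members and all lists were chosen with earlier results of these data known. By the rule for named genes, every member is named; full statistics go to the called member, to those with the smallest p up to 8 in all, and to H19, Igf2, Dlk1, Meg3, Cdkn1c and Peg3; other lists give called members or the 1 with the smallest p. Airn, Fignl1, Ikzf1 and the amine list, with the genes named from it, were added after values were seen. The labels do not tie replicate numbers to a shared source beyond the litter. Intervals on counts cover these libraries only. The p-values rest on the spread between single embryos of litter 6, moderated by the fit with that of other genes (8.14 total degrees of freedom for tested members).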

Additional observations from a re-analysis of the deposited data

How the results depend on the processing

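Over 14 alternatives, 377 of 416 values of single members kept their direction and their side of the threshold. Ddc fell under 13 of the 14, with log2 fold changes from -0.99 to -0.77 and adjusted p values from 7.35e-07 to 0.0824; the exception was the fit without control replicate 3, which leaves 1 control and called 0 members. With the replicate block, 75 genes were called (69 shared with the 70), Ddc had -0.88 (adjusted p = 0.0033) and Peg10 -0.51 (adjusted p = 0.0665); libraries with the same number deviated together with a correlation of 0.106 over 13711 genes, and they share only a number. Calls over all genes ranged from 39 (without control replicate 3) to 141 (without cKO replicate 2) with 1 library left out, and those of members from 0 to 1. Where 1 library was left in a group, its spread was taken from the other group. The cause of the following changes was not tested. The members' median was 0.0012 under upper-quartile scaling, which moved all genes up, and between -0.034 and -0.0057 with 1 library left out. That of the other imprinted genes was -0.073 under upper-quartile scaling, -0.069 with a mean of at least 5 CPM, where fewer genes are tested, and between -0.10 and -0.063 with 1 library left out. That of imprint regulators was between -0.063 and -0.022 with 1 library left out. Cell type markers called numbered 1, and 0 without a filter, 0 at a mean of at least 5 CPM, 2 with the block, 3 with DESeq2, 2 with limma-voom and 0 to 10 with 1 library left out (0 without control replicate 3, 10 without cKO replicate 3), their median then being between -0.25 and -0.039.

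Of members not called, 18 changed sign somewhere. Upper-quartile scaling gave 0.020 for H19, 0.0099 for Igf2, 0.0057 for Igf2r, 0.013 for Grb10, 0.017 for Rtl1, 0.0065 for Plagl1 and 0.011 for Ube3a. No filter gave 0.0040 for H19 and 0.0053 for Rtl1, limma-voom 0.0020 for H19 and -0.00039 for Zrsr1, and DESeq2 0.0038 for Rtl1. With 1 library left out, values ran from -0.077 to 0.078 for H19, from -0.10 to 0.085 for Igf2, from -0.034 to 0.0031 for Igf2r, from -0.13 to 0.11 for Grb10, from -0.18 to 0.19 for Cdkn1c, from -0.50 to 0.36 for Dlk1, from -0.19 to 0.095 for Meg3, from -0.29 to 0.38 for Rtl1, from -0.023 to 0.076 for Usp29, from -0.15 to 0.11 for Plagl1, from -0.13 to 0.072 for Mest, from -0.040 to 0.019 for Ube3a, from -1.47 to 0.70 for Slc22a18, from -0.0068 to 0.10 for Impact, from -0.086 to 0.017 for Gnas, from -0.091 to 0.19 for Zrsr1, from -0.37 to 0.11 for Asb4, from -0.15 to 0.032 for Slc38a4. Depth limits Usp29, Rtl1, Nap1l5 and Slc22a18, with 4 to 34 counts per library.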
